A study of Mus musculus with 7 samples.

Results

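The 10 transcription factors described here, Pou5f1, Nanog, Prdm14, Esrrb, Tfcp2l1, Zfp42, Klf2, Klf4, Klf5 and Tbx3, belong to the network that holds mouse embryonic stem (ES) cells in the naive state. They were taken by symbol, as the genes whose Ensembl ID carries that name, and all 10 of them were among the 43629 genes counted. All 10 also passed the filter on low counts, which left 18426 genes to test. The study followed E14 mouse cells of the 129/Ola background in 3 groups of polyA RNA libraries. Ago2 knockout cells after 5 days of differentiation towards extra-embryonic endoderm (KO XEN) gave 2 libraries, from lines C4 and 5-3. Wild-type E14 cells after the same 5 days (WT XEN) gave 2 libraries, A and B. Undifferentiated Ago2 knockout ES cells (KO ESC), kept in 15% serum with 100 U/mL LIF, gave 3 libraries, 1 of line C4 and 2 of line 5-3. Both XEN groups received 10 ng/mL activin A together with all-trans retinoic acid at 0.1 µM, in 15% serum. Wild-type ES cells were not analysed here, so the ES level is that of KO ESC for both XEN groups, and a WT XEN value relative to it differs in genotype as well as in differentiation. The labels do not say whether a knockout line is a clone, nor whether the libraries of any group stem from separate cultures.

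Naive ES cells resemble the epiblast before implantation, and their self-renewal is sustained by a set of interlocking transcription factors that activate each other's genes. LIF acts through STAT3 on Klf4 and Tfcp2l1, inhibition of GSK3 lifts the repressor TCF7L1 from Esrrb, and FGF and ERK signalling works against the network. When ES cells leave the naive state, most of these genes are switched off, while some, such as Tbx3 and the KLF genes, are also used in other early lineages. Primitive endoderm, the lineage of XEN cells, arises beside the epiblast in the blastocyst.

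The KO XEN libraries held 13941826 (C4) and 33389566 (5-3) counts, those of WT XEN 36427340 and 38595537, and those of KO ESC 39998808 to 48650113. Levels are CPM (read counts per TMM-scaled library size), with mean ± SD over n = 2 KO XEN, n = 2 WT XEN and n = 3 KO ESC libraries. The remaining share is the CPM of a XEN library in percent of the mean CPM of the 3 KO ESC libraries, and its 95% exact Poisson interval covers counting error only. Changes are log2 fold changes ± SE from edgeR's quasi-likelihood test, with p-values adjusted by the Benjamini-Hochberg method over all 18426 genes and called below 0.05. The Ago2 transcript stood at 122 CPM in the KO XEN library labelled C4 and 9.94 CPM in that of 5-3, against 394 and 432 CPM in WT XEN, and at 94.4 CPM in KO ESC of C4 and 9.37 and 9.65 CPM in KO ESC of 5-3. Line C4 therefore held more of the targeted transcript than line 5-3, and the results below give both lines. The summed level of 6 ES cell markers outside the 10 factors was 20.3 and 31.2 CPM in KO XEN, against 559 and 651 CPM in WT XEN, and 3054 to 3247 CPM in KO ESC, and most of the WT XEN sum came from Dppa5a.

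After differentiation 7 of the 10 naive factors were left at no more than 3.27% of the ES level in each KO XEN library, and Klf4, Klf5 and Tbx3 at 17.4% to 67.4%. In WT XEN, 6 of those 7 stood higher than in KO XEN, with Klf2 as the exception, and Klf4, Klf5 and Tbx3 at 72.8% to 114% of the ES level. In KO XEN against WT XEN, 9 of the 10 factors were lower and 0 were higher, with Klf2 not past the threshold. Across all genes tested 23.9% were lower and 22.3% higher in that comparison. The median log2 fold change of the 10 factors was -2.75, also with Prdm14 at its bound, beside 0.00 over all genes tested. In KO XEN against KO ESC all 10 factors were lower, with a median of -7.12, where 34.3% of all genes were lower and 34.8% higher with a median of -0.08. In WT XEN against KO ESC 7 of the 10 were lower, with a median of -3.80, where 30.3% of all genes were lower and 32.2% higher with a median of -0.03. Klf4, Klf5 and Tbx3 did not pass the threshold there. The comparisons with KO ESC share those libraries and are given side by side. In these bulk libraries, fewer cells of a type and less RNA per cell cannot be told apart.

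**Figure D1:**
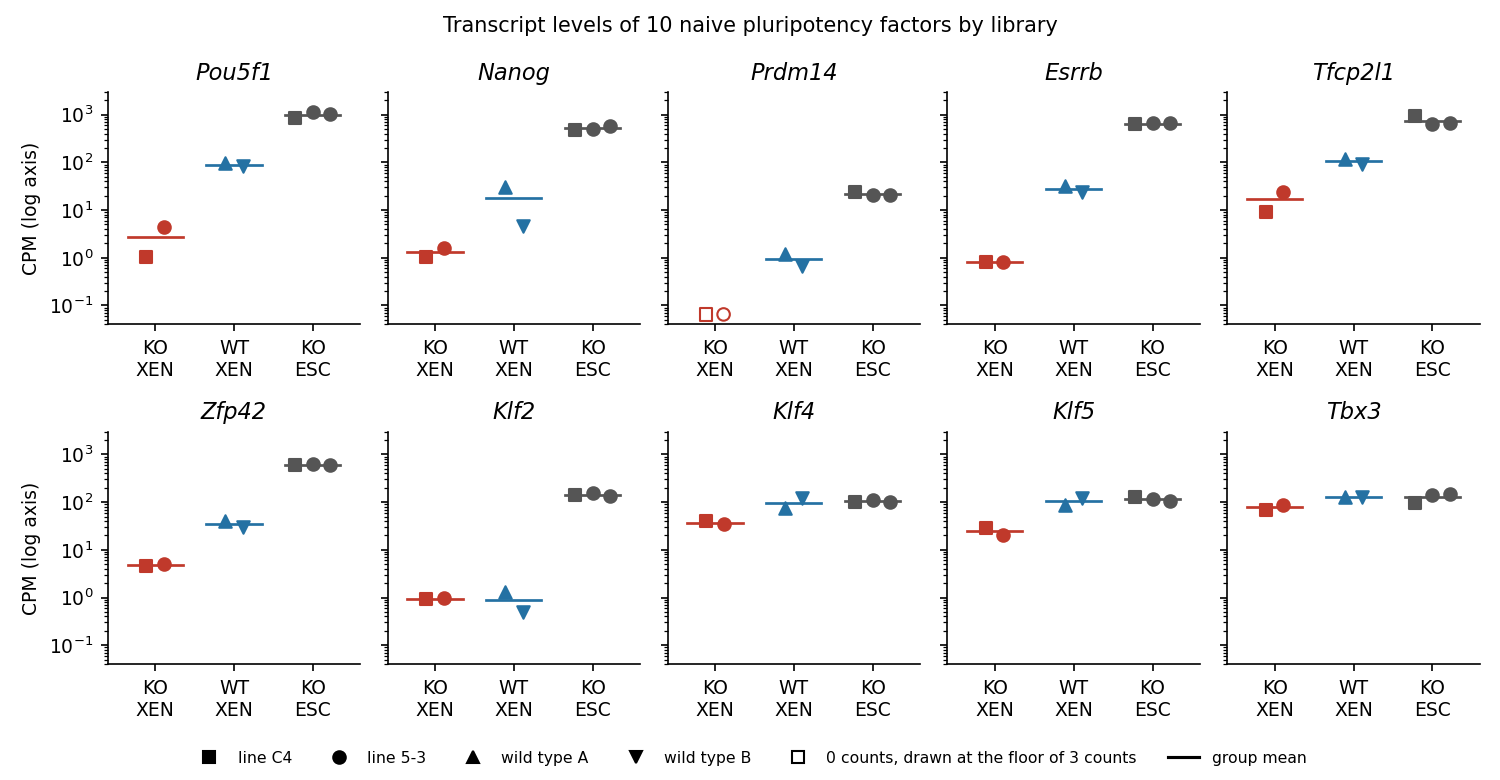
Transcript level of each factor in every library, in CPM on a log axis, with KO XEN, WT XEN and KO ESC side by side. Points are libraries, horizontal lines are group means, and open symbols for Prdm14 stand for 0 counts, drawn at the floor of 3 counts over the group. In 6 panels the levels form 3 steps, Klf2 is low in both XEN groups, whose libraries overlap, and for Klf4, Klf5 and Tbx3 the WT XEN and KO ESC values overlap. How many of all genes form such steps was not counted.

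Levels were compared between genes per kilobase of merged exons. In KO ESC, Pou5f1 was the most abundant of the 10 at 448 ± 65.4 CPM per kilobase, followed by Zfp42 at 328 ± 4.35 and Nanog at 235 ± 22.9 CPM per kilobase. Esrrb at 108 ± 1.83, Tfcp2l1 at 79.3 ± 18.4 and Klf2 at 78.1 ± 6.29 CPM per kilobase came next, and the libraries of Tfcp2l1 and Klf2 overlapped. Klf4 at 34.3 ± 1.39, Klf5 at 22.4 ± 1.84, Tbx3 at 19.5 ± 4.32 and Prdm14 at 8.51 ± 0.763 CPM per kilobase closed the order, with overlap between Klf5 and Tbx3. After differentiation the order changed. In KO XEN it was led by Klf4 at 12.1 ± 1.37, Tbx3 at 11.7 ± 2.04 and Klf5 at 4.71 ± 1.14 CPM per kilobase, the first pair overlapping, whereas Pou5f1 at 1.23 ± 1.10 CPM per kilobase was in sixth place. In WT XEN Pou5f1 still led at 40.2 ± 3.55 CPM per kilobase, overlapping Klf4 at 32.1 ± 10.1, ahead of Klf5 at 20.1 ± 4.31 and Tbx3 at 19.8 ± 0.0408 CPM per kilobase.

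Pou5f1 encodes OCT4, the POU-domain factor without which pluripotent cells are not maintained (ENSMUSG00000024406, chr17:35506018-35510772, plus strand, mm10). It stood at 1.02 CPM (C4) and 4.52 CPM (5-3) in KO XEN, against 96.0 and 84.7 CPM in WT XEN, and 844, 1128 and 1051 CPM in KO ESC. The 3 groups did not overlap, and the KO XEN lines differed from each other, with 14 counts in C4 and 147 in 5-3. Of the ES level, 0.101% (95% interval 0.0552 to 0.169) was left in KO XEN C4 and 0.449% (0.379 to 0.528) in KO XEN 5-3, against 9.53% and 8.41% in WT XEN. Relative to KO ESC of the same line the KO XEN shares were 0.120% in C4 and 0.415% in 5-3, so that the lines kept their order. Pou5f1 was lower in KO XEN than WT XEN (log2 fold change -4.91 ± 0.52, adjusted p = 0.000367), lower in KO XEN than in KO ESC (-8.39 ± 0.59, adjusted p = 1.06e-05) and lower in WT XEN than in KO ESC (-3.48 ± 0.46, adjusted p = 0.000343). The size in KO XEN rested on the line: against WT XEN the log2 fold change was -6.55 without KO XEN 5-3 and -4.32 without KO XEN C4, and against KO ESC it was -10.03 and -7.79. The antisense gene Gm19553, which overlaps Pou5f1, had at most 3 counts in any XEN library.

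Nanog encodes a homeodomain factor that lets ES cells self-renew without LIF when it is raised (ENSMUSG00000012396, chr6:122707489-122714633, plus strand). It stood at 1.02 and 1.63 CPM in KO XEN C4 and 5-3, 30.7 CPM in WT XEN A and 4.62 CPM in WT XEN B, and 488, 506 and 585 CPM in KO ESC. The groups did not overlap, although the WT XEN libraries lay far apart. KO XEN kept 0.193% (C4) and 0.310% (5-3) of the ES level, against 5.84% (95% interval 5.50 to 6.19) in WT XEN A and 0.877% (0.749 to 1.02) in WT XEN B. No other of the 10 factors had as wide a ratio between the WT XEN libraries. The difference of KO XEN from WT XEN passed the threshold (log2 fold change -3.67 ± 0.81, adjusted p = 0.00771). Nanog was also lower than in KO ESC in KO XEN (-8.56 ± 0.93, adjusted p = 9.16e-05) and in WT XEN (-4.90 ± 0.75, adjusted p = 0.000792). Against WT XEN the fold depended on single libraries: it was -1.79 without WT XEN A (adjusted p = 0.00342) and -4.47 without WT XEN B (adjusted p = 0.000564), and the call was lost without KO XEN C4 (-3.44, adjusted p = 0.0521) and with line 5-3 alone (-3.44, adjusted p = 0.0856). For WT XEN against KO ESC it was -6.80 without WT XEN A and -4.09 without WT XEN B. The processed pseudogenes Nanog-ps1 and Nanog-ps2 had at most 1 count in each XEN library.

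Prdm14 encodes a PR-domain zinc finger factor that restrains FGF signalling and de novo DNA methylation in ES cells (ENSMUSG00000042414, chr1:13113457-13127163, minus strand). It had 0 counts in both KO XEN libraries, 43 and 24 counts in WT XEN, and 1003, 858 and 1038 counts in KO ESC. These are 1.18 and 0.664 CPM in WT XEN and 24.1, 20.6 and 20.8 CPM in KO ESC, with no overlap of the groups. A count of 0 in both KO XEN libraries together allows a share of up to 0.297% of the ES level, with a floor of 3 counts over the group, against 5.40% (95% interval 3.91 to 7.27) and 3.04% (1.95 to 4.53) in WT XEN. By that floor Prdm14 was at least 14.2-fold lower in KO XEN than WT XEN (adjusted p = 0.000822, edgeR) and at least 337-fold lower than in KO ESC (adjusted p = 9.23e-06). In WT XEN it was lower than in KO ESC (log2 fold change -4.56 ± 0.35, adjusted p = 5.35e-05).

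Esrrb, Tfcp2l1 and Zfp42 are the members most closely tied to the naive state. Esrrb encodes an orphan nuclear receptor (ENSMUSG00000021255, chr12:86361117-86521628, plus strand). It stood at 0.799 and 0.831 CPM in KO XEN C4 and 5-3, 31.6 and 23.7 CPM in WT XEN, and 643, 664 and 657 CPM in KO ESC. The libraries of KO XEN and those of KO ESC lay close together, those of WT XEN less so, and the groups were far apart. KO XEN kept 0.122% (95% interval 0.0609 to 0.218) in C4 and 0.127% (0.0836 to 0.185) in 5-3, against 4.83% and 3.61% in WT XEN. The log2 fold change was -5.07 ± 0.23 in KO XEN against WT XEN (adjusted p = 5.75e-05), -9.64 ± 0.25 in KO XEN against KO ESC (adjusted p = 8.84e-07) and -4.57 ± 0.19 in WT XEN against KO ESC (adjusted p = 3.15e-06).

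Tfcp2l1 encodes a CP2-family factor downstream of LIF and STAT3 (ENSMUSG00000026380, chr1:118627945-118685168, plus strand). It stood at 9.22 CPM in KO XEN C4 and 24.5 CPM in KO XEN 5-3, against 118 and 92.2 CPM in WT XEN, and 947, 627 and 670 CPM in KO ESC. The groups did not overlap, and C4 was the lower line in KO XEN and the higher in KO ESC. The remaining share was 1.23% in C4 and 3.27% in 5-3 in KO XEN, or 0.974% and 3.77% relative to KO ESC of the same line, against 15.7% and 12.3% in WT XEN. Tfcp2l1 was lower in KO XEN than WT XEN (log2 fold change -2.62 ± 0.43, adjusted p = 0.00206; -3.59 without KO XEN 5-3). It was lower than in KO ESC in KO XEN (-5.45 ± 0.48, adjusted p = 2.89e-05), with values of -6.41 without KO XEN 5-3 and -4.73 with line 5-3 alone, and in WT XEN (-2.83 ± 0.41, adjusted p = 0.000591). Of the 7 factors called lower in WT XEN it had kept the highest mean share, 14.02 ± 2.41%.

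Zfp42 encodes the zinc finger protein REX1, widely used as a reporter of the naive state (ENSMUSG00000051176, chr8:43295063-43306980, minus strand). It stood at 4.50 and 5.08 CPM in KO XEN C4 and 5-3, 40.2 and 30.4 CPM in WT XEN, and 610, 626 and 614 CPM in KO ESC. Libraries agreed closely within KO XEN and within KO ESC and less so within WT XEN, and the groups did not overlap. The KO XEN libraries kept 0.730% and 0.823% of the ES level and the WT XEN libraries 6.52% and 4.93%. The log2 fold change was -2.87 ± 0.19 in KO XEN against WT XEN (adjusted p = 0.000131), -7.00 ± 0.22 in KO XEN against KO ESC (adjusted p = 9.34e-07) and -4.13 ± 0.19 in WT XEN against KO ESC (adjusted p = 3.86e-06).

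The KLF factors, zinc finger proteins that bind GC-rich sequences and can stand in for each other in ES cells, did not all behave alike, as Klf2 was lower than in KO ESC in both XEN groups, and Klf4 and Klf5 passed the threshold for KO XEN only. Klf2 (ENSMUSG00000055148, chr8:72319033-72321656, plus strand) stood at 0.944 and 0.954 CPM in KO XEN C4 and 5-3, 1.32 and 0.498 CPM in WT XEN, and 139, 157 and 136 CPM in KO ESC. Both XEN groups were low and overlapped, with the KO XEN values lying between the WT XEN libraries. The shares were 0.655% (95% interval 0.349 to 1.12) and 0.662% (0.450 to 0.939) in KO XEN, and 0.912% (0.673 to 1.21) and 0.345% (0.205 to 0.546) in WT XEN. Klf2 was lower than in KO ESC in KO XEN (log2 fold change -7.24 ± 0.40, adjusted p = 3.88e-06) and in WT XEN (-7.31 ± 0.39, adjusted p = 6.68e-06; -8.13 without WT XEN A). KO XEN against WT XEN gave a log2 fold change of 0.07 ± 0.42 (adjusted p = 0.916), with a 95% interval from -0.90 to 1.03. That fold rested on single libraries: it was 0.86 without WT XEN A (adjusted p = 0.0606) and -0.475 without WT XEN B (adjusted p = 0.22).

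Klf4, one of the original reprogramming factors (ENSMUSG00000003032, chr4:55527143-55532466, minus strand), stood at 39.9 and 34.0 CPM in KO XEN C4 and 5-3, 76.2 and 120 CPM in WT XEN, and 101, 109 and 103 CPM in KO ESC. KO XEN was below all other libraries, and the WT XEN libraries lay on either side of KO ESC. The remaining share was 38.1% and 32.5% in KO XEN and 72.8% and 114% in WT XEN. The fold change of Klf4 was -1.41 ± 0.22 on the log2 scale in KO XEN against WT XEN (adjusted p = 0.00182) and -1.50 ± 0.21 in KO XEN against KO ESC (adjusted p = 0.000378). WT XEN and KO ESC did not differ past the threshold (-0.10 ± 0.20, 95% interval -0.56 to 0.37, adjusted p = 0.694).

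Klf5, also needed in the trophectoderm of the blastocyst (ENSMUSG00000005148, chr14:99298691-99315036, plus strand), stood at 28.7 and 20.3 CPM in KO XEN C4 and 5-3, 88.7 and 120 CPM in WT XEN, and 126, 116 and 107 CPM in KO ESC. As with Klf4, KO XEN was lower than every other library, while WT XEN overlapped KO ESC. The share was 24.6% and 17.4% in KO XEN and 76.2% and 103% in WT XEN. The log2 fold change was -2.10 ± 0.23 in KO XEN against WT XEN (adjusted p = 0.000402) and -2.26 ± 0.22 in KO XEN against KO ESC (adjusted p = 5.19e-05). WT XEN against KO ESC gave -0.15 ± 0.20 (95% interval -0.62 to 0.31, adjusted p = 0.523). Per kilobase, Klf2 made up 2.67% and 3.32% of the summed level of Klf2, Klf4 and Klf5 in KO XEN, against 1.67% and 0.430% in WT XEN and between 56.7% and 59.4% in KO ESC. The sum of these 3 was 19.1 and 15.6 CPM per kilobase in KO XEN, against 42.8 and 62.7 in WT XEN and between 128 and 144 in KO ESC.

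Tbx3 encodes a T-box factor that supports self-renewal and has also been tied to the extra-embryonic endoderm fate of mouse ES cells (ENSMUSG00000018604, chr5:119670669-119684724, plus strand). It stood at 67.8 and 86.9 CPM in KO XEN C4 and 5-3, 131.0 and 130.7 CPM in WT XEN, and 95.9 CPM (C4), 144 and 147 CPM (5-3) in KO ESC. KO XEN was the lowest group without overlap, and the WT XEN values lay between those of the KO ESC lines. The share was 52.6% in C4 and 67.4% in 5-3 in KO XEN, and 102% and 101% in WT XEN. Relative to KO ESC of the same line the KO XEN shares were 70.7% in C4 and 59.8% in 5-3, which turned round the order of the lines. The fold change of Tbx3 was -0.76 ± 0.23 on the log2 scale in KO XEN against WT XEN (adjusted p = 0.0297) and -0.74 ± 0.22 in KO XEN against KO ESC (adjusted p = 0.016), and WT XEN against KO ESC gave 0.02 ± 0.21 (95% interval -0.47 to 0.51, adjusted p = 0.937). Both calls were the least firm of the 10: that against WT XEN was lost without WT XEN A (adjusted p = 0.0715), WT XEN B (0.0917) or KO XEN C4 (0.167), and that against KO ESC without KO XEN C4 (0.123). The overlapping antisense gene Tbx3os1 had 4 to 19 counts per library.

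**Figure D2:**
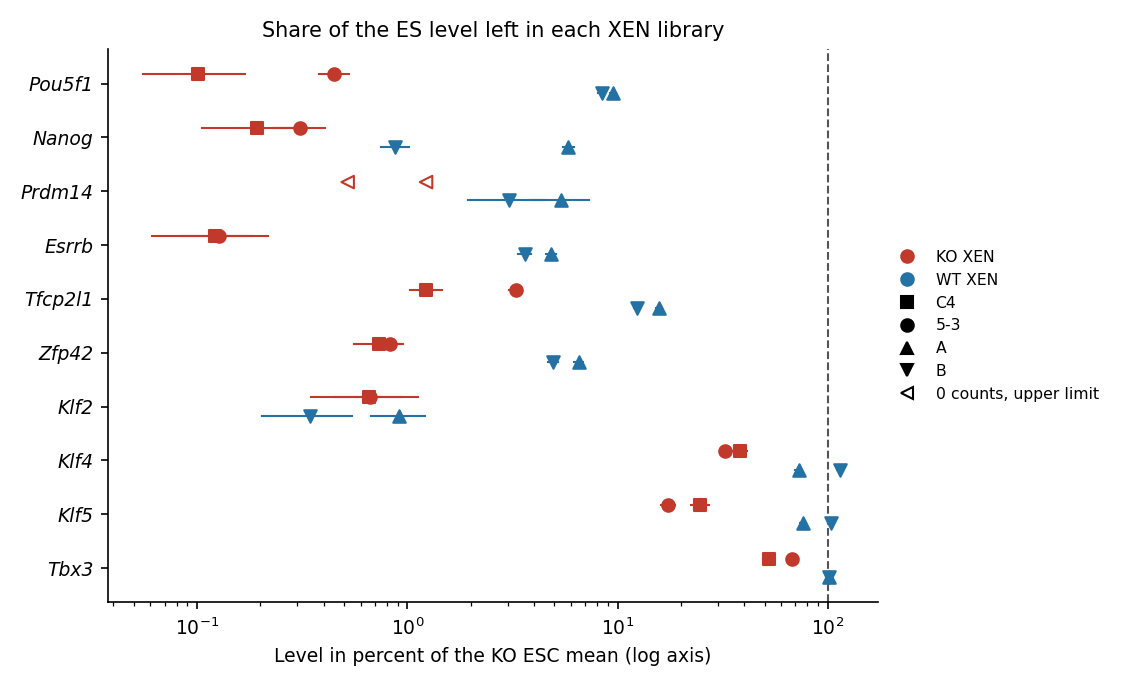
Remaining share of each factor in the 4 XEN libraries, in percent of the mean KO ESC level on a log axis. Points are libraries, bars are 95% exact Poisson intervals of the XEN count, left-pointing open triangles are upper limits for 0 counts, and the dashed line marks 100%. For Klf2 the groups overlap, and for the other 9 factors both KO XEN libraries lie to the left of both WT XEN libraries. The share of all genes with such a separation was not counted.

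The remaining share ranged over several orders of magnitude among the factors. In KO XEN its mean ran from 0 in Prdm14 over 0.124 ± 0.00347% in Esrrb, 0.251 ± 0.0825% in Nanog, 0.275 ± 0.246% in Pou5f1, 0.658 ± 0.0049% in Klf2, 0.776 ± 0.0660% in Zfp42 and 2.25 ± 1.44% in Tfcp2l1. It then stepped up to 21.04 ± 5.11% in Klf5, 35.3 ± 3.99% in Klf4 and 60.0 ± 10.5% in Tbx3. Among neighbours with counts in this order, Nanog and Pou5f1 had overlapping libraries and the other pairs did not. The place of Prdm14 is not resolved, since its 0 counts allow up to 0.297%, above the mean shares of Esrrb, Nanog and Pou5f1. In WT XEN the order began with Klf2 at 0.629 ± 0.401%, Nanog at 3.36 ± 3.51%, and Prdm14 and Esrrb, both at 4.22%, whose libraries overlapped from each to the next. Zfp42 at 5.73 ± 1.12%, Pou5f1 at 8.97 ± 0.792% and Tfcp2l1 at 14.02 ± 2.41% followed without overlap. Klf5 at 89.9 ± 19.3%, Klf4 at 93.6 ± 29.4% and Tbx3 at 101.5 ± 0.209% were last and overlapped. The mean share in WT XEN divided by that in KO XEN was 33.9 for Esrrb and 32.6 for Pou5f1, then 13.4 for Nanog, 7.37 for Zfp42, 6.23 for Tfcp2l1, 4.27 for Klf5, 2.65 for Klf4 and 1.69 for Tbx3, and it was 0.955 for Klf2. Prdm14, with 0 counts in KO XEN, is not in this order, and its bound of at least 14.2-fold lies above the value of Nanog.

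Against all 9179 genes with at least 10 CPM in KO ESC, the factors lay mostly at the low end. Under 10% of the ES level was left for 7 of the 10 factors in each KO XEN library, where 5.87% (C4) and 5.97% (5-3) of those genes were that low. In WT XEN it was 6 of the 10 in each library, where 3.25% (A) and 4.05% (B) of the genes were that low. The median share of the 10 factors was 0.692% and 0.742% in KO XEN and 8.02% and 6.67% in WT XEN, beside medians of 80.4% and 79.5% in KO XEN and 83.4% and 86.3% in WT XEN over those genes. For Pou5f1 0.621% of the genes had a lower mean share in KO XEN, against 3.25% in WT XEN, and for Zfp42 it was 1.11% in KO XEN and 2.43% in WT XEN. For Klf2 it was 1.03% in KO XEN and 0.425% in WT XEN. Klf4, Klf5 and Tbx3 lay within the bulk, with 23.0%, 13.0% and 39.3% of genes lower in KO XEN and 54.6%, 52.7% and 58.7% in WT XEN.

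**Figure D3:**
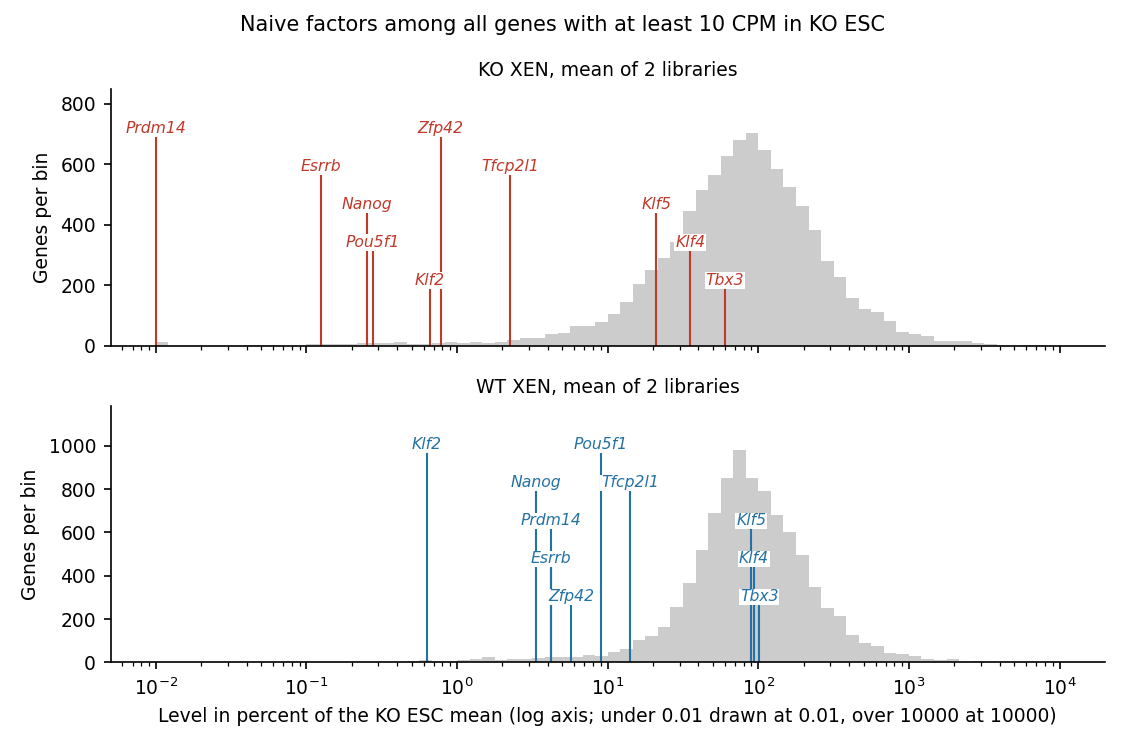
Distribution of the mean remaining share over the 9179 genes with at least 10 CPM in KO ESC, for KO XEN above and WT XEN below, in percent of the KO ESC mean on a log axis. Bars count genes per bin and labelled vertical lines mark the factors, with Prdm14 in KO XEN drawn at 0.01. The lines of Klf4, Klf5 and Tbx3 fall within the bulk of genes and the other 7 lie in the left tail of both panels.

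**Figure D4:**
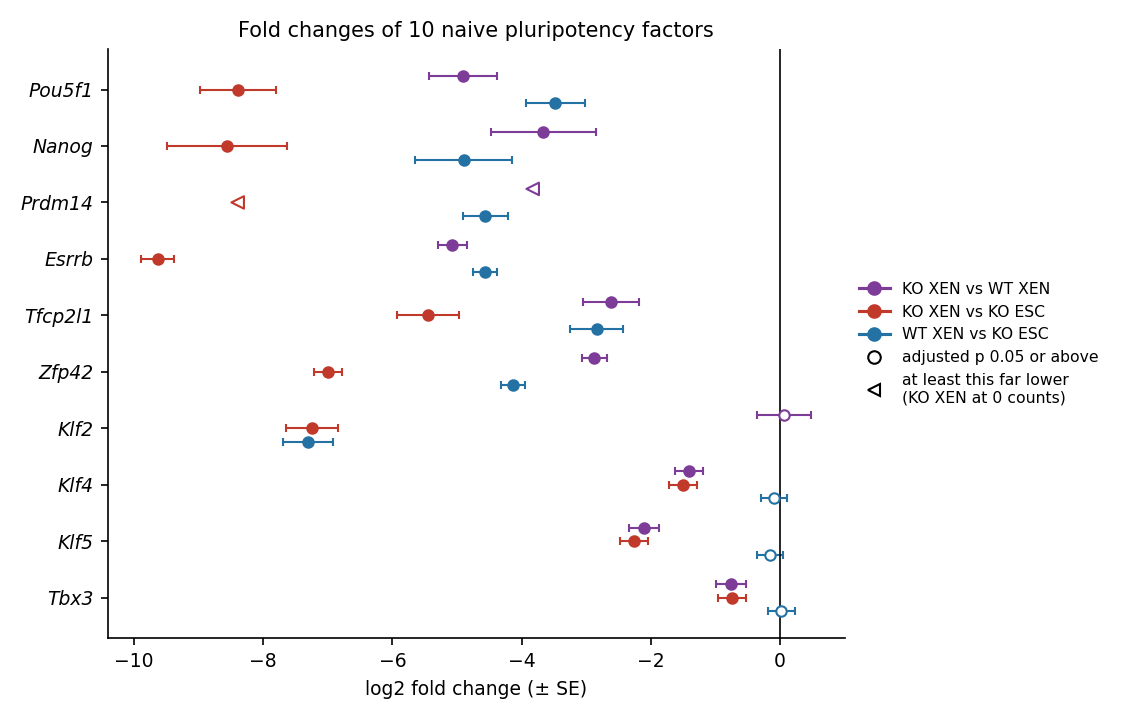
Log2 fold changes with SE of the 10 factors in KO XEN against WT XEN, KO XEN against KO ESC and WT XEN against KO ESC. Filled points have an adjusted p below 0.05, open circles do not, and triangles are bounds for Prdm14, which had 0 counts in KO XEN. Klf2 lies near 0 in the first comparison, and Klf4, Klf5 and Tbx3 near 0 in the last.

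The sequences upstream of the start sites of 3 factors that were low in both XEN groups, Pou5f1, Nanog and Zfp42, are shown with that of Klf4, which did not pass the threshold in WT XEN against KO ESC, so that matches to short binding words can be seen. Each is the 250 bases before the RefSeq start (GRCm38.p6), read 5′ to 3′ on the strand of the gene, with matches in capitals. RefSeq windows were matched for 7 of the 10 factors, all but Klf5, Tbx3 and Prdm14.
Pou5f1, chr17:35505782-35506031, plus strand: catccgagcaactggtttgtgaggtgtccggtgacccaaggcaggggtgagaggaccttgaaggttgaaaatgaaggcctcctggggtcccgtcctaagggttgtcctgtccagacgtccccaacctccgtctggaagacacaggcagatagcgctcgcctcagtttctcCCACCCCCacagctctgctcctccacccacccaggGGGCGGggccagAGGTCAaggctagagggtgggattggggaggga
Nanog, chr6:122707239-122707488, plus strand: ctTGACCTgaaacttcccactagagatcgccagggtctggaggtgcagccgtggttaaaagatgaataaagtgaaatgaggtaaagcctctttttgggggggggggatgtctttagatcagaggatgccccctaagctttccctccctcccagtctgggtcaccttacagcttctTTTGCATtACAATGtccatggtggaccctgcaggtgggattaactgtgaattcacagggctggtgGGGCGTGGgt
Zfp42, chr8:43307010-43307259, minus strand: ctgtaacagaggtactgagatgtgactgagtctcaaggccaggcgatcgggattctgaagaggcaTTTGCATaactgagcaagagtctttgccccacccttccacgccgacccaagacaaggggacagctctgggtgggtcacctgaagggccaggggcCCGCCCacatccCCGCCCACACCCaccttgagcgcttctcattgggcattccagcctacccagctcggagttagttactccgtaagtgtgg
Klf4, chr4:55532476-55532725, minus strand: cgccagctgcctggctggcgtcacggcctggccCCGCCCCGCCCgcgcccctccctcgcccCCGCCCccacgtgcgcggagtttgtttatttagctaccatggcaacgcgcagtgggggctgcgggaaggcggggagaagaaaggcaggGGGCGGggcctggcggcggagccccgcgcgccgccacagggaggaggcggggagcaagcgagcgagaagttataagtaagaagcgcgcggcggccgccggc
Capitals mark 5 words searched on both strands in 32851 promoter windows of the same length. The POU octamer core ATGCAAA stood in the windows of Nanog (bases -75 to -69 from the start) and Zfp42 (-185 to -179), and in 4.12% of all windows. In Nanog it lay beside the SOX core ACAATG (-67 to -62), which was in 10.7% of all windows. The nuclear receptor half-site AGGTCA, searched without flanking bases, stood in the windows of Pou5f1 (-33 to -28) and Nanog (-248 to -243), and in 14.02% of all windows. The KLF box GGGNGTGG was in the windows of 4 of the 7, Pou5f1, Nanog, Zfp42 and Tfcp2l1, and in 15.9% of all, and the GC box GGGCGG in those of Pou5f1, Zfp42, Klf2 and Klf4, and in 32.7% of all. In Zfp42 a KLF box (-75 to -68) overlapped a GC box (-79 to -74), and in Klf4 a pair of its 4 GC boxes overlapped. These matches describe the sequence and do not show binding.

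Other transcription regulators of pluripotency moved in both directions. Of 23 tested, 13 were lower in KO XEN than WT XEN, 4 were higher and 6 did not pass, with a median log2 fold change of -1.09. Of all genes, 23.9% were lower and 22.3% higher there. Zscan10, a zinc finger factor of ES cells, was at 1.72 ± 0.271 CPM in KO XEN, against 19.5 ± 0.556 CPM in WT XEN (-3.48 ± 0.19, adjusted p = 0.000111). Sall4, a partner of OCT4, was at 8.49 ± 1.34 CPM in KO XEN, against 170 ± 53.6 CPM in WT XEN (-4.34 ± 0.27, adjusted p = 0.000131), and stood at 269 ± 25.02 CPM in KO ESC. The cell cycle factor Mybl2 (-3.17) and Sall1 (-1.37), a relative of Sall4, fell as well. The 4 that were higher in KO XEN were Trp53 (1.39), Thap11 (1.03), the TCF7L1 gene Tcf7l1 (0.75) and Nacc1 (0.50). Sox2, the partner of OCT4 on DNA, which is named after its values were seen, stood at 4.48 ± 1.37 CPM in KO XEN, 4.32 ± 3.53 CPM in WT XEN and 362 ± 35.3 CPM in KO ESC. It thus was low in both XEN groups, as Klf2 was, with a log2 fold change of 0.02 ± 0.52 between them (adjusted p = 0.988). Against KO ESC, 21 of the 23 were lower and 1 higher in KO XEN, and 19 were lower and 0 higher in WT XEN. The shares of all genes lower there were 34.3% in KO XEN and 30.3% in WT XEN.

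Markers of ES cells that are not factors of the network were lower in KO XEN or did not pass the threshold. Of 15 tested, 10 were lower in KO XEN than WT XEN, 0 were higher and 5 did not pass, with a median of -3.57 when Dppa3, with 0 counts in KO XEN and a WT XEN level under the floor, is left out. Dnmt3l, a cofactor of DNA methylation, (log2 fold change -6.09), the F-box gene Fbxo15 (-6.24), Dppa5a, an RNA-binding protein (-5.01), and Spp1, which encodes osteopontin (-4.45), had the smallest adjusted p. Against KO ESC all 15 were lower in KO XEN, and in WT XEN 13 were lower and 1, the glucose transporter Slc2a3, was higher. Over all genes 23.9% were lower in KO XEN than WT XEN, and 34.3% in KO XEN and 30.3% in WT XEN against KO ESC.

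Genes of the signals that feed the network were called in both directions, beside 23.9% of all genes lower and 22.3% higher in the same comparison. Of 14 genes of LIF and STAT3 signalling, 5 were higher in KO XEN than WT XEN, 1 was lower and 8 did not pass, with a median log2 fold change of 0.12. Stat3 itself was at 371 ± 14.1 CPM in KO XEN against 169 ± 30.6 CPM in WT XEN (1.14 ± 0.17, adjusted p = 0.0012), and its targets Pim1 (2.80) and Junb (2.22) were higher as well. Socs3, of the same list, had a fold change in the other direction that did not pass (-0.79 ± 0.36, adjusted p = 0.107). Pim3 (0.44) and Bcl3 (0.20) did not pass either. The lower gene was Lifr, the LIF receptor, at 193 ± 46.8 CPM in KO XEN, against 867 ± 537 CPM in WT XEN (-2.17 ± 0.41, adjusted p = 0.00366). Of 11 genes of WNT and GSK3 input, 6 were higher in KO XEN, 1 was lower and 4 did not pass, with a median of 0.49. Among the higher ones were the WNT feedback gene Axin2 (2.61) and the nuclear effector Lef1 (5.08), and the lower gene was Apc (-0.76). Of 13 genes of BMP, ERK and FGF input, 5 were higher and 3 lower, with the lower ones near the share of all genes, and 5 did not pass, with a median of -0.23. The BMP target Id3 (3.50), the receptor Fgfr1 (3.10) and the ERK phosphatase Dusp6 (2.27) were higher in KO XEN, and the ETS factor Etv5 (-2.35) was lower.

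**Figure D5:**
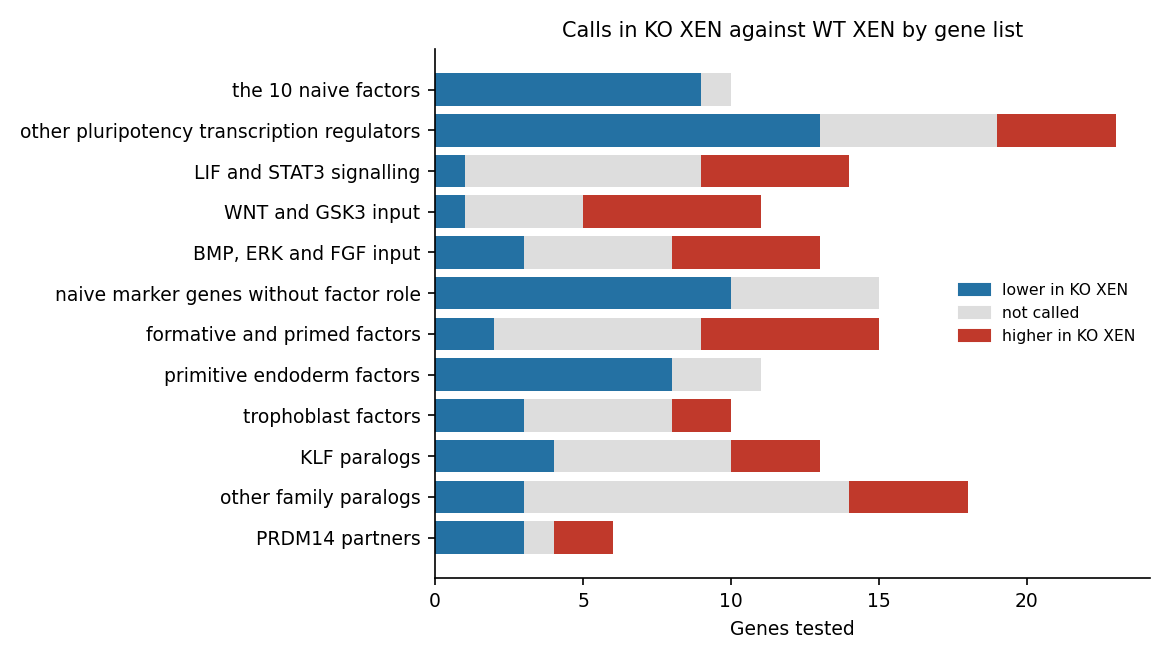
Number of genes called lower, not called and called higher in KO XEN against WT XEN for the 10 factors and 11 related gene lists. Bar length is the number of genes tested. Of all genes, 23.9% were called lower and 22.3% higher. The 10 factors, the naive markers and the primitive endoderm factors have no gene called higher, and the signalling lists have more genes called higher than lower.

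Factors of neighbouring states differed in direction, beside 23.9% of all genes lower and 22.3% higher in KO XEN than WT XEN. Of 15 factors of the formative and primed states, 6 were higher in KO XEN than WT XEN, 2 were lower and 7 did not pass, with a median of 0.38, or 0.69 without T, which had 0 counts in KO XEN. Foxp1 (2.54) and Sall2 (2.75) were among the higher ones, and the lower ones were Dnmt3b (-3.98), a de novo DNA methyltransferase, and Eomes (-2.42), a T-box factor. Of 11 primitive endoderm factors, 8 were lower in KO XEN than WT XEN, 0 were higher and 3 did not pass, with a median of -3.20. Sox7 (-5.79), Cited1 (-5.37) and Sox17 (-4.81) were among the lower ones. Against KO ESC 8 of these 11 were higher and 2 lower in KO XEN, and all 11 were higher in WT XEN. Of all genes, 34.8% were higher and 34.3% lower in KO XEN, and 32.2% were higher in WT XEN. Of 10 trophoblast factors, 2, Gata2 and Gata3, were higher in KO XEN than WT XEN, 3 were lower and 5 did not pass, with a median of 0.32. Both counts were near the shares of all genes. The 3 lower ones were Tead4 (-2.06), Eomes and Cdx2, which had 0 counts in KO XEN.

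Family members of the factors were called in both directions, at shares to be read against the 23.9% of all genes lower and 22.3% higher. Of 13 tested KLF paralogs 3 were higher in KO XEN than WT XEN, 4 were lower and 6 did not pass, with a median log2 fold change of -0.20. Klf8 fell the furthest, to 1.36 ± 0.172 CPM in KO XEN against 115 ± 87.1 CPM in WT XEN (-6.38 ± 0.63, adjusted p = 0.000296), and Klf9 (-1.66) and Klf15 (-3.04) fell as well, while Klf10 (1.45) was higher. Of 18 tested paralogs of the other factors 4 were higher and 3 lower, and 11 did not pass, with a median of 0.03. Tbx2, the nearest relative of Tbx3, was at 98.5 ± 14.6 CPM in KO XEN, 8.04 ± 3.20 CPM in WT XEN and 0.151 ± 0.148 CPM in KO ESC (KO XEN against WT XEN 3.61 ± 0.51, adjusted p = 0.00109), and Tbx4 was also higher in KO XEN (3.67). Tfcp2, the relative of Tfcp2l1, was at 54.7 ± 7.68 CPM in KO XEN, against 20.2 ± 0.902 CPM in WT XEN (1.44 ± 0.20, adjusted p = 0.000933). Esrra, the relative of Esrrb, stood at 33.9 ± 4.49 CPM in KO XEN against 23.5 ± 7.65 CPM in WT XEN (0.52 ± 0.26, adjusted p = 0.13). Of 6 genes of chromatin and co-repressor proteins linked to PRDM14, with a median of -0.15, the PRC2 subunits Suz12 (-2.23), Ezh2 (-1.28) and Eed (-0.71) were lower in KO XEN than WT XEN and the co-repressor gene Cbfa2t2 (0.73) and the histone demethylase gene Kdm1a (0.64) were higher.

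The genes whose profile over the 7 libraries was nearest to each factor were found among 8627 named genes with at least 10 CPM in KO ESC, by the root mean square difference of log2(CPM + 0.5) after centring on KO ESC. For Pou5f1 the nearest was L1td1, an RNA-binding protein of pluripotent cells, at a distance of 0.441, with 2.66 CPM in KO XEN, 155 CPM in WT XEN and 1069 CPM in KO ESC. For Esrrb it was Zfp988 (0.534), for Zfp42 it was Zfp985 (0.243), for Nanog Platr10 (0.653), for Klf2 Platr7 (0.353), for Tfcp2l1 Gli1 (0.299) and for Prdm14 Hsf2bp (0.258). Hsf2bp was at 1.88 CPM in KO XEN, 4.23 CPM in WT XEN and 94.5 CPM in KO ESC, whereas Prdm14 had 0 counts in KO XEN. The added 0.5 CPM damps the fall of a gene as low as Prdm14 and shortens that distance. Klf4 lay nearest to Taf15 (0.109), Klf5 to Pold3 (0.151) and Tbx3 to Lyplal1 (0.102). By this choice these genes were also lower in KO XEN and near the KO ESC level in WT XEN. Nanog had the largest distance to its nearest gene, and Tbx3 the smallest.

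Markers of ES cells and of other cell types differed between the groups as well, beside 23.9% of all genes lower and 22.3% higher in KO XEN than WT XEN. The 6 summed ES cell markers kept 0.640% and 0.982% of the KO ESC mean in KO XEN C4 and 5-3 and 17.6% and 20.5% in WT XEN A and B, with none of the 6 at 0. A single gene, Dppa5a, carried most of the WT XEN sum, with 8.78 and 23.9 CPM in KO XEN, against 489 and 577 CPM in WT XEN. Of the 6, 4 were lower in KO XEN than WT XEN, while Sox2 and Tdgf1, a co-receptor of Nodal at 3.73 ± 1.92 CPM in KO XEN, 3.41 ± 0.718 CPM in WT XEN and 710 ± 21.9 CPM in KO ESC, did not pass. Summed primitive endoderm markers (9 genes, 8 lower in KO XEN than WT XEN, 0 higher) stood at 1671 and 2442 CPM in KO XEN, against 22759 and 36663 CPM in WT XEN and 168 to 184 CPM in KO ESC. Summed fibroblast and mesenchyme markers (7 genes, 5 higher in KO XEN than WT XEN, 1 lower) stood at 6159 and 8141 CPM in KO XEN, against 1146 and 517 CPM in WT XEN and 19.9 to 32.9 CPM in KO ESC, where Col3a1 was at 0. Tagln, Col1a1 and Col3a1 carried most of the KO XEN sum. The lower gene was the collagen gene Col1a2, at 32.3 ± 5.30 CPM in KO XEN, against 135 ± 109 CPM in WT XEN (-2.06 ± 0.54 on the log2 scale, adjusted p = 0.0151), and Thy1 did not pass (-0.25 ± 0.76, adjusted p = 0.817). Neuroectoderm markers (5 genes, 4 higher in KO XEN than WT XEN, 0 lower) summed to 520 and 448 CPM in KO XEN, against 78.6 and 51.0 CPM in WT XEN and 68.1 to 101 CPM in KO ESC. Nes (425 CPM in C4, 331 CPM in 5-3) carried most of the KO XEN sum, and Tubb3 (mean 56.9 CPM) most of that in KO ESC. Relative to KO ESC, 3 of the 5 were higher in KO XEN, 1 was lower and 1 did not pass. The lower gene was Sox1 (log2 fold change -4.795 ± 0.63, adjusted p = 0.000256). Trophoblast markers (5 genes, 2 higher and 1 lower, of which Cdx2 was at 0 in KO XEN) summed to 141 and 78.2 CPM in KO XEN, against 31.9 and 17.3 CPM in WT XEN and 37.0 to 43.1 CPM in KO ESC. These sums rest on different genes. Krt7 (95.4 CPM in C4, 39.9 CPM in 5-3) and Gata3 (43.0 CPM, 37.3 CPM) carried most of the KO XEN sum. Tfap2c, with a mean of 39.0 CPM, carried that of KO ESC and fell to a mean of 1.37 CPM after differentiation of the knockout lines. Relative to KO ESC, KO XEN had 2 of the 5 higher (Krt7, Gata3), 2 lower (Tfap2c, Cdx2) and 1 that did not pass. Germ cell markers (5 genes, 1 higher and 2 lower, of which Dppa3 was at 0 in KO XEN) summed to 17.6 and 16.9 CPM in KO XEN, against 63.2 and 44.1 CPM in WT XEN and 48.7 to 93.8 CPM in KO ESC. The share of counts from mitochondrial genes was 0.781% and 0.979% for KO XEN, 1.94% and 2.64% for WT XEN, and between 2.79% and 3.26% for KO ESC. The part of these in the level of the naive factors was not tested.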

How the data were processed

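The authors aligned reads to mm10 (STAR 2.4.2a) and assigned them to genes (featureCounts 1.4.5-p1), per the submitters' processing notes. The deposited values are raw counts per Ensembl gene, whole numbers for 43629 genes in 7 libraries. The libraries are reverse-stranded per the labels. How strand was used in counting, which annotation release served and whether rows were filtered are not given in the sources used here, so counts of genes that overlap on opposite strands are uncertain. Symbols, positions and merged exon lengths came from GENCODE M21 (GRCm38, the assembly of mm10), which matched 42548 IDs. Promoter windows came from RefSeq tables of GRCm38.p6.

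A single edgeR 4.0.16 quasi-likelihood fit in R 4.3.3 took all 7 libraries and 3 groups. Scaling was by TMM, and filterByExpr by group kept 18426 genes and set aside 25203. The fit had 4 residual degrees of freedom. P-values measure the spread between libraries, which may be technical. The procedure was tested on simulated counts, but the outcome is not given here, so no error rate for these data is drawn from it. Lines C4 and 5-3 each gave KO ESC and KO XEN libraries, a pairing that comes from the labelled line. Across genes, the difference between the lines before differentiation and that after it had a correlation r of 0.0634. An alternative fit took line as a block.

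The 10 factors and all gene lists were chosen with earlier results of these data known. Named genes are the 10 factors, the targeted gene, up to 4 genes per list with the smallest adjusted p in KO XEN against WT XEN with any that went against the rest, and the nearest profiles. Not every gene that this allows is named. Other alternatives were DESeq2 1.42.0, its size factors in edgeR, library totals without TMM, no filter on low counts, the compared groups alone, line 5-3 alone, and each library left out in turn.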

Additional observations from a re-analysis of the deposited data

How the results depend on the processing

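The counts of factors called lower held within 1.5 times under all 14 alternatives of each comparison: 7 to 9 in KO XEN against WT XEN, 9 to 10 in KO XEN against KO ESC and 7 in WT XEN against KO ESC. Calls of 2 factors were lost, those of Nanog and Tbx3 given with their values above, and only when libraries were left out. With line as a replicate block the counts were 9, 10 and 7 and no call of a factor changed. The values whose sign turned were all of factors that had not passed the threshold. Klf2 in KO XEN against WT XEN ran from -0.475 to 0.862 when single libraries were left out. In WT XEN against KO ESC, Klf4 ran from -0.451 to 0.227, Klf5 from -0.385 to 0.0833 and Tbx3 from -0.169 to 0.11. Tbx3 was also at -0.000595 in DESeq2, -0.000599 with its size factors, -0.0707 with library totals and -0.154 with line 5-3 alone. The cause was not tested. No scaling moved the median of all genes by more than 0.092 on the log2 scale. Of the remaining shares recomputed with other scalings or against KO ESC of the same line, 13 moved by more than 1 SD of their group, all of Klf2, Esrrb or Tbx3, and 87 did not. Each SD comes from 2 libraries, and it was 0.00347% for Esrrb in KO XEN but 29.4% for Klf4 in WT XEN. The split thus depends on how closely the 2 libraries agreed, and Prdm14 in KO XEN, at 0, could not move. Depth limits the smallest shares: in KO XEN C4, Esrrb rests on 11 counts, Klf2 on 13 and Pou5f1 and Nanog on 14 each, and Prdm14 on 0.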
